A study of Homo sapiens with 4 samples.

Results

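Chromosome 18 is the second most gene-poor of the 22 autosomes and X in the annotation used here, and it was described from its own contacts in 4 Hi-C maps. Its members were all bins of the deposited bin list that lie on chromosome 18, 378 of 14444 bins of about 200 kb, with every pair of these bins that a map lists. Bins were kept when at least 50% of their pairs were listed in each map, which left 375 bins, 77 on the short arm and 298 on the long arm. The label gene-poor held in the annotation, with 266 protein-coding genes or 3.41 per Mb, above only chromosome 13 among 23 chromosomes, against 25.0 per Mb on chromosome 19. Whether the chromosome lay at the nuclear periphery in these cells cannot be read from the maps, which hold contacts within chromosomes only.

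Hi-C fixes chromatin, digests it with a restriction enzyme and ligates fragments that lie close together in the nucleus. The cells were IMR90, an established line of normal human lung fibroblasts, and carried the pLNCX2 ER:HRAS G12V construct, an oncogenic RAS protein that 4OHT switches on. Growing cells had no 4OHT, and cells in oncogene-induced senescence (OIS, RIS in the labels) had it, at 100 nM for 6 days in the samples of the series. For the OIS map without shA1, dose and time are not given by the sample labels. The Grow-shA1 and OIS-shA1 cells also carried pMSCV miR shHMGA1, a short hairpin RNA against HMGA1, and each of these maps pools 2 replicates. The Grow and OIS maps are those of the laboratory's previous experiment and have no sample in the series. Setting an shA1 map against either of them is therefore also a comparison of 2 experiments. Contact maps hold no measure of HMGA1 or of any marker gene, so neither the knockdown nor the cell type could be checked here. There was 1 map per condition, so differences have no replicate spread beside them, no p-value is given, and higher or lower compares single maps. The SD values describe the spread between pairs of bins, which are not replicates.

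Mammalian chromosomes separate into an A compartment of active, gene-rich chromatin and a B compartment of inactive chromatin that is often attached to the nuclear lamina, and regions of like compartment contact each other over long distances. In human fibroblasts chromosome 18 is known for lying near the nuclear edge, while the gene-rich chromosome 19 lies in the interior. HMGA1 binds the minor groove of AT-rich DNA through its AT-hooks and is a component of the senescence-associated heterochromatic foci (SAHF) that form in RAS-induced senescent fibroblasts.

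Bins were bounded by sites of the enzyme HindIII, and all 377 inner edges of chromosome 18 bins fell inside an AAGCTT. The sequences below show the edge and a stretch of ordinary AT content of the 4 bins whose contact with the B compartment differed most between OIS and Grow, the highest and the lowest on each arm, because base content and contact change are set against each other further on. They are from GRCh37, plus strand. For each edge the capitals mark the HindIII site:
edge of the short arm bin with the largest rise, chr18:2205439-2205468: aagccttggtccAAGCTTtgagaaactcta
edge of the short arm bin with the largest fall, chr18:8204563-8204592: gggagatgacccAAGCTTgacagctgcctc
edge of the long arm bin with the largest rise, chr18:70802617-70802646: tgctctcccaaaAAGCTTttgcaatatttg
edge of the long arm bin with the largest fall, chr18:77799583-77799612: gtgataaaatttAAGCTTtcaagtgaaaat

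For 3 of these bins, the 100-base window of median AT content is given, with runs of at least 5 A or T in capitals, the kind of stretch to which AT-hook proteins such as HMGA1 are known to bind. The windows hold 63%, 59% and 65% A or T in the order shown, each the median of its bin, so they show typical and not extreme stretches:
short arm, largest rise, chr18:2207352-2207451: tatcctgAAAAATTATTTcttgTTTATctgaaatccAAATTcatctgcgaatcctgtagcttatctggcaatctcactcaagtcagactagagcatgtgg
short arm, largest fall, chr18:8209476-8209575: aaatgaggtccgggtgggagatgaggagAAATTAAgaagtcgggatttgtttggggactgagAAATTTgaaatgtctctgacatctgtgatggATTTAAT
long arm, largest rise, chr18:70803530-70803629: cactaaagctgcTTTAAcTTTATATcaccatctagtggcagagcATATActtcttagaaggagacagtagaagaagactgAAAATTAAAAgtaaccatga

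The short arm spans chr18:1-15409940 and the long arm chr18:18511637-78077248, and a single bin between them, chr18:15409941-18511636, is the centromere gap. The short arm held 66 protein-coding genes (4.28 per Mb) at a GC content of 41.0%. The long arm held 200 genes (3.36 per Mb) at 39.5%. No protein-coding gene started in 35 of the 77 kept short arm bins (45.5%) and in 181 of the 298 kept long arm bins (60.7%). The long arm was thus poorer in genes and GC than the short arm.

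Contact scores of bin pairs were deposited after balancing and after correction for distance, and they have both signs. Its log base is not stated, so differences are given in score units and not as folds. The 4 maps listed between 4032189 (OIS-shA1) and 4631800 (Grow) pairs over all chromosomes. Of the possible distal pairs of chromosome 18, those over 2 Mb apart, the short arm had at least 96.6% listed in every map and the long arm at least 94.8%. Between the arms the share went from 94.2% in Grow to 84.3% in OIS-shA1, and was lowest for A-B pairs, from 88.9% to 70.9%. Reads per pair are not given, which leaves the precision of each score unknown, and class means below use only pairs listed in all 4 maps.

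Compartments were read from the first principal component of the chromosome's correlation matrix, with a positive score for A bins and a negative one for B bins. In Grow, 169 kept bins were A and 206 were B. The short arm was mostly A, with 45 A and 32 B bins, and the long arm mostly B, with 124 A and 174 B bins. The short arm held 4 A and 4 B domains (runs of bins of one sign). Its longest A domain was 5.80 Mb and ran from PTPRM, a receptor tyrosine phosphatase, to CEP192, a centrosome protein. The long arm held 25 A and 24 B domains. Its longest A domain was 4.61 Mb and held the gene of GATA6, an endoderm transcription factor. Its longest B domain was 4.20 Mb with 5 gene starts, among them that of SETBP1. A bins had a mean GC content of 41.0% and B bins of 38.7%. Across the 375 bins the score correlated with GC content at r = 0.371 in Grow, 0.322 in Grow-shA1, 0.464 in OIS and 0.424 in OIS-shA1. These are descriptions over neighbouring bins of the same chromosome.

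**Figure D1:**
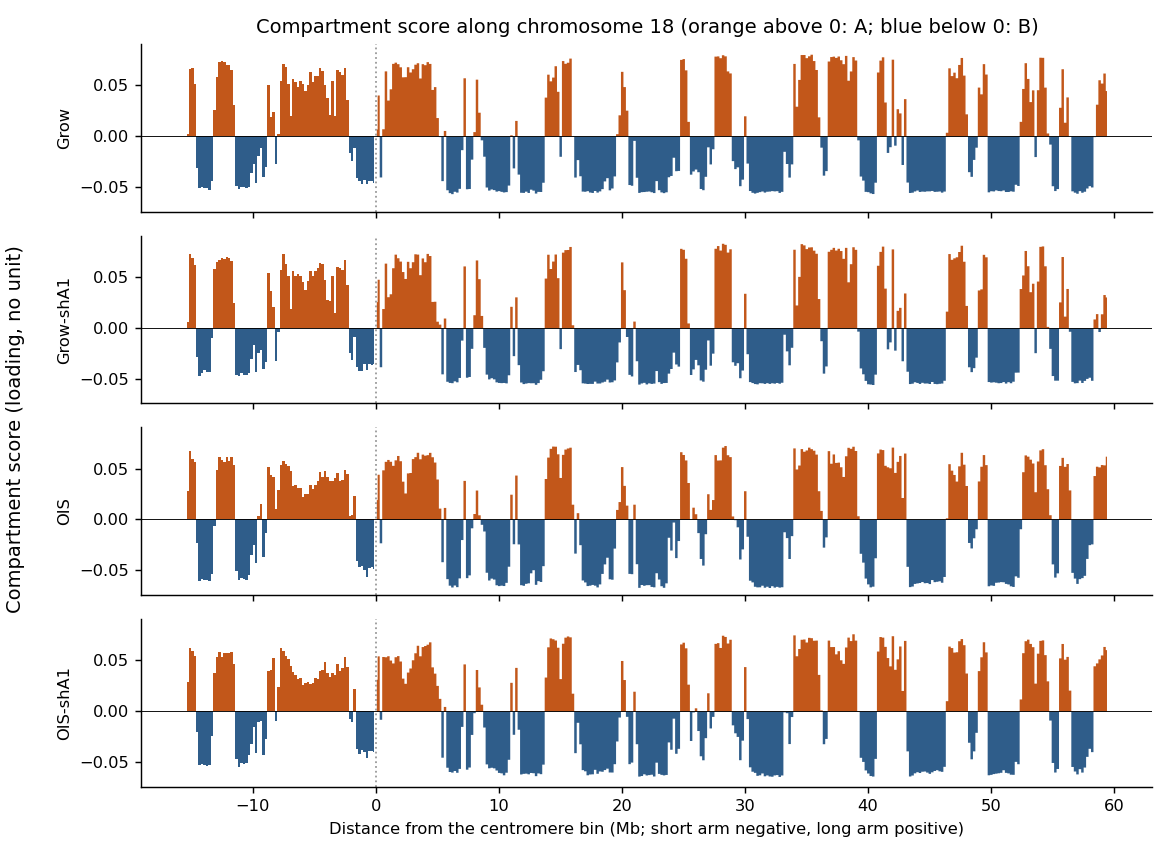
Compartment score (loading, no unit) of each kept bin of chromosome 18 against the distance from the centromere bin in Mb, short arm negative and long arm positive, 1 panel per map. Orange marks A bins and blue B bins, and the 4 panels show the same alternation of domains on both arms, with more orange in OIS (194 A bins) than in Grow (169 A bins).

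To see how far RAS moved compartments on chromosome 18, signs of the score were compared between OIS and Grow. More bins were A in OIS on both arms, 50 against 45 on the short arm and 144 against 124 on the long arm. In all, 27 bins went from B to A, 6 on the short arm and 21 on the long arm, which is 7.20% of the kept bins, beside 7.88% over all chromosomes. Only 2 bins went from A to B (0.533%, beside 1.07%), and these were the bins with the largest rise of contact with B bins on each arm, whose sequence is shown above. With shA1 the same RAS comparison moved 13 bins from B to A (3.47%, beside 6.73%) and 1 from A to B (0.267%, beside 1.24%), and chromosome 18 then had the lowest share of changed bins of the 23 chromosomes. In OIS-shA1 relative to OIS, 17 bins were B that had been A (4.53%, beside 3.09%) and 3 the reverse (0.800%, beside 1.51%). In Grow-shA1 relative to Grow, 5 bins went from A to B (1.33%, beside 1.75%) and 4 from B to A (1.07%, beside 1.49%). No test between maps was possible, and the share with RAS alone lay near that of the genome.

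The 27 bins that were B in Grow and A in OIS were GC-richer than the rest of B. Their mean GC content was 43.0%, against 38.1% for the other B bins and 41.0% for A bins. All 27 had an absolute Grow score below the median of B bins (0.0513), so they were among the weaker B bins by score. The largest of their absolute scores was 0.0374, so not all lay near 0. In OIS-shA1, 14 of them were A and 13 were B, and 11 also went from B to A in the RAS comparison with shA1. The bins were chosen on the Grow and OIS maps. Their weak Grow scores and their lower share of A in other maps than OIS are thus partly set by that choice. A run of at least 3 such bins was found once on the short arm and at 2 places on the long arm. The short arm run, chr18:13201112-13797059, holds the starts of LDLRAD4, an inhibitor of TGF-beta signalling, of RNMT, the mRNA cap methyltransferase, and of FAM210A. Its mean score was -0.0177 in Grow, -0.0220 in Grow-shA1, 0.0104 in OIS and 0.00102 in OIS-shA1.

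Both long arm runs lie within the same B domain. The run chr18:44001706-44599942 holds LOXHD1, ST8SIA5, KATNAL2, PIAS2 (a SUMO ligase) and ELOA2, and its mean score was -0.0347 in Grow, -0.0392 in Grow-shA1, 0.00605 in OIS and -0.00887 in OIS-shA1. The run chr18:45401979-45994911 holds SMAD2, the receptor-activated transducer of TGF-beta signals, and ZBTB7C, and went from -0.0168 in Grow to 0.0182 in OIS, with -0.0246 in Grow-shA1 and -0.00128 in OIS-shA1. Both runs were chosen as B in Grow and A in OIS. By their means both were also B in Grow-shA1 and OIS-shA1, the second run only just in OIS-shA1. The bin of SMAD2 was itself A in OIS-shA1, with a score of 0.0180. Single bins that crossed included that of PHLPP1, a phosphatase of AKT, with ZCCHC2 in a run of 2 bins (mean -0.0133 in Grow, 0.0512 in OIS and 0.0485 in OIS-shA1), and the bin of the SERPINB3, SERPINB4, SERPINB11, SERPINB12 and SERPINB13 cluster of serine protease inhibitor genes (-0.0279, 0.0215 and 0.0203). These stayed A in OIS-shA1.

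Contacts between A bins of chromosome 18 were higher in OIS than in Grow within both arms. The mean score of distal A-A pairs of the short arm was 0.179 in Grow (SD 0.516 over 697 pairs), 0.118 in Grow-shA1, 0.393 in OIS (SD 0.620) and 0.191 in OIS-shA1. For the long arm it was 0.284 in Grow (SD 0.465 over 6948 pairs), 0.231 in Grow-shA1, 0.488 in OIS (SD 0.650) and 0.451 in OIS-shA1. The OIS map stood highest on both arms. The difference between OIS and Grow was 0.214 on the short arm and 0.204 on the long arm, less than the SD between pairs. With shA1 the RAS difference was 0.0730 on the short arm and 0.220 on the long arm. Between the arms the 4 maps lay between -0.0284 and 0.0301.

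Over the whole chromosome the distal A-A difference of OIS from Grow was 0.131, the second largest of 23 chromosomes, whose median was 0.0136. With shA1 it was 0.141, the largest of the 23. The level of distal A-A contact on chromosome 18 was among the lowest in Grow, at place 19 of 23, and took place 3 in OIS. Chromosome 19 differed by -0.0594 in the same comparison, place 22. These ranks are descriptions of single maps and no test of the difference between chromosomes was made. They cover all distal pairs and were not matched for distance, although longer chromosomes hold pairs farther apart. On chromosome 18 the A-A difference of OIS from Grow was 0.318 at 2 to 5 Mb and 0.00981 at 50 to 80 Mb.

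Near the diagonal, at 2 Mb or less, both arms showed the same direction for A-A pairs. The local A-A and B-B means also count each bin paired with itself. At 0.3 to 1 Mb, without such pairs, OIS differed from Grow for A-A by 0.203 on the short and 0.196 on the long arm. For B-B the differences there were -0.178 and -0.219. The mean local A-A score of the short arm was 0.0535 in Grow, 0.0281 in Grow-shA1, 0.299 in OIS and 0.0174 in OIS-shA1. On the long arm it was 0.268, 0.260, 0.470 and 0.307 in the same order. OIS alone stood above the other maps on both arms. Local B-B contact went the other way, with -0.0996 in Grow, -0.0627 in Grow-shA1, -0.266 in OIS and -0.102 in OIS-shA1 on the short arm. The long arm had 0.432, 0.427, 0.238 and 0.404. For both classes and both arms the OIS-shA1 value lay nearer to the 2 growing maps than to OIS.

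Differences of distal B-B contact depended on the processing in size and in sign. The short arm had 1.21 in Grow (SD 0.639 over 340 pairs), 1.07 in Grow-shA1, 1.25 in OIS and 1.06 in OIS-shA1. The long arm had 1.05 in Grow (SD 0.805 over 13880 pairs), 1.00 in Grow-shA1, 0.966 in OIS and 0.923 in OIS-shA1, and between the arms 0.472, 0.390, 0.369 and 0.280. The long arm difference of -0.0856 between OIS and Grow became 0.0121 when each map was centred on its own mean at the same distance over all chromosomes. It became 0.199 where every map set its own compartments, and -0.308 with scores divided by each map's SD, which turned the short arm difference from 0.0415 to -0.260. The mean distal score over all chromosomes at the separations found on chromosome 18 was itself 0.171 in Grow and 0.0860 in OIS. The spread between long arm B-B pairs was wider in OIS, with an SD of 1.10.

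Distal A-B contact was lower in OIS on both arms. On the short arm it was -0.601 in Grow, -0.777 in Grow-shA1, -0.926 in OIS and -1.14 in OIS-shA1, and on the long arm -0.378, -0.446, -0.526 and -0.539. Compartment strength sets A-A and B-B contact, averaged, against A-B contact, and was therefore higher in OIS. It was 1.30 in Grow, 1.37 in Grow-shA1, 1.75 in OIS and 1.76 in OIS-shA1 on the short arm, and 1.05, 1.06, 1.25 and 1.23 on the long arm. Of the 23 chromosomes, chromosome 18 had the second strongest separation in each of the 4 maps (0.946 in Grow, against a median of 0.725). The higher strength in OIS depended on the scale. After each map was divided by the SD of its own scores at the same distance, which was 0.808 in Grow and 0.998 in OIS over all chromosomes, the long arm difference of 0.206 became -0.0369 and the short arm difference of 0.453 became 0.0573.

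**Figure D2:**
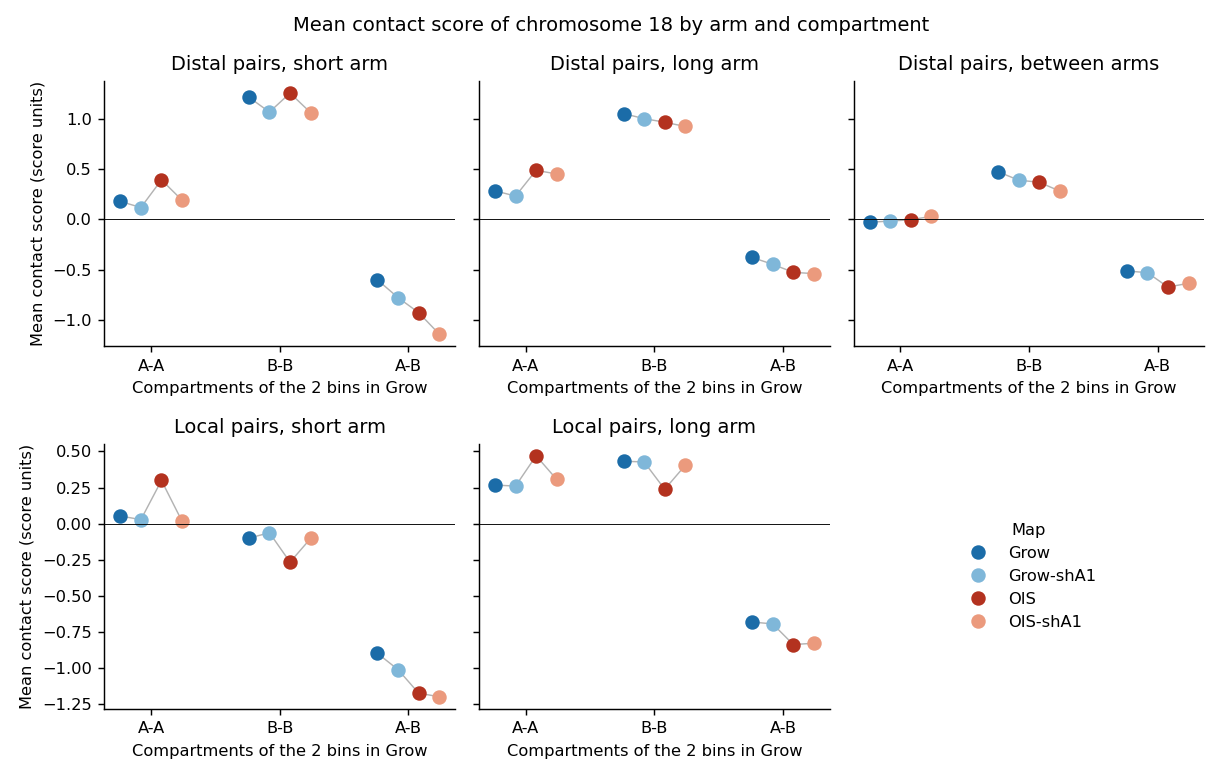
Mean contact score (score units) of pairs of chromosome 18 bins, by the compartments of both bins in Grow, for distal pairs (over 2 Mb, upper panels) and local pairs (lower panels) of the short arm, of the long arm and between the arms. Local A-A and B-B pairs include each bin paired with itself. Each point is 1 map and the grey lines join the maps. Local A-A contact of the OIS map lies above the other 3 maps on both arms, 0.299 on the short and 0.470 on the long arm, and distal B-B points of the long arm lie between 0.923 and 1.05.

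The difference of A-A contact between OIS and Grow depended on distance. At 2 to 5 Mb it was 0.313 on the short arm and 0.321 on the long arm. On the long arm it was 0.222 at 5 to 10 Mb, 0.204 at 10 to 20 Mb, 0.191 at 20 to 50 Mb and 0.0847 over 50 Mb. Over 2 Mb, the difference on the long arm was thus smaller at each longer range. The short arm did not follow this order, with 0.125 at 5 to 10 Mb and 0.170 at 10 to 20 Mb. Over 2 Mb, B-B contact of the long arm differed most at 10 to 20 Mb, by -0.187, and least at 5 to 10 Mb, by -0.0372.

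Mean B-B differences were made up of differences in opposite directions among the bins that were B in Grow. B bins were split at the GC content of the chromosome, 39.8%, a rule chosen after domain values had been seen, into 139 bins below and 67 above. Distal pairs of B bins both below had a mean score of 1.25 in Grow, 1.07 in Grow-shA1, 1.40 in OIS and 1.23 in OIS-shA1. Mixed pairs, with a bin on each side, had 0.598 in Grow, 0.650 in Grow-shA1, 0.207 in OIS and 0.294 in OIS-shA1. Pairs of bins both above had 0.649 in Grow, 0.582 in Grow-shA1, 0.843 in OIS and 0.632 in OIS-shA1. Among bins that were B in Grow, those of like GC content had more contact in OIS than in Grow and those of unlike GC content less. Not all of them were B in OIS. The 27 bins that were A there had a mean GC content of 43.0%, against 38.1% for the other B bins. Part of the contrast by GC content can therefore be one between bins that were A and B in OIS, which was not tested.

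The long arm carried this pattern most clearly. There the OIS map differed from Grow by 0.201 for pairs both below, by -0.447 for mixed pairs and by 0.231 for pairs both above. With shA1 the 3 differences were 0.218, -0.410 and 0.0480. On the short arm they were 0.211, -0.0767 and 0.124 over only 109, 187 and 44 pairs, and between the arms 0.00966, -0.273 and 0.131. The mixed pairs were the class that was lower in OIS in all 3 regions, and they were lower with shA1 too. In OIS-shA1 relative to OIS, pairs of like GC content were lower (-0.168 for both below and -0.211 for both above over the whole chromosome) and mixed pairs higher by 0.0862.

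Mixed pairs were lower in OIS on all 23 chromosomes when each was split at its own GC content, with a median difference of -0.291. Chromosome 18, at -0.391, had the third largest fall. Its difference for pairs both above, 0.194, was the largest of the 23 (median 0.0340), and for pairs both below, 0.152, the third largest (median 0.0452). As with the ranks above, these places were not matched for distance between chromosomes of different length. The rise of pairs both below turned to -0.127 when each map was divided by its own SD, whereas mixed pairs were lower in every alternative run. Splitting at the median GC of B bins instead gave 0.263 for pairs both below and 0.0272 for pairs both above.

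**Figure D3:**
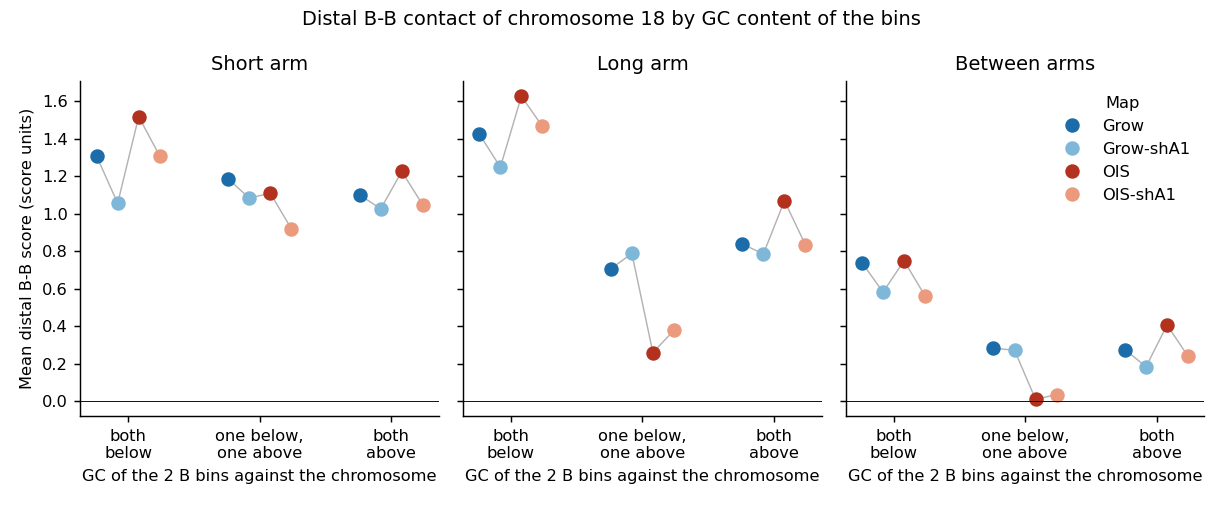
Mean distal B-B contact score (score units) of chromosome 18 by GC content of both B bins relative to the chromosome, in panels for the short arm, the long arm and between the arms. Each point is 1 map and grey lines join the maps. On the long arm the mixed class goes from 0.705 in Grow to 0.259 in OIS, while the class with both bins below goes from 1.43 to 1.63.

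Pairs of domains show where on the long arm these contacts lie. Among 337 pairs of domains of at least 5 bins each, with at least 20 and at least 50% of their distal pairs listed in all maps, the largest fall between Grow and OIS was that of the B domain chr18:61600322-64799545 and the B domain chr18:74796558-77000005. The first holds CDH7 and CDH19, type II cadherins, at a GC content of 35.4%, and the second MBP, a myelin protein, and SALL3, a zinc finger protein, at 43.5%. Their mean score was 1.31 in Grow, 1.54 in Grow-shA1, 0.0954 in OIS and 0.383 in OIS-shA1 over 175 pairs. OIS stood lowest, and the difference from Grow of -1.21 (SD 0.543 between pairs) was close to the RAS difference of -1.16 with shA1. The same CDH7 and CDH19 domain and the SMAD2 domain, chr18:44001706-45994911 at 44.1% GC, had 0.721 in Grow, 1.17 in Grow-shA1, -0.390 in OIS and 0.0384 in OIS-shA1. That pair fell by 1.11 with RAS and by 1.13 with RAS and shA1.

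Rises were found among AT-rich domains and among GC-rich ones. The B domain of the desmosomal cadherin genes, chr18:27000222-29398975 at 36.2% GC, and the B domain of CBLN2 and NETO1, chr18:68203385-70802629 at 36.4%, had a mean score of 1.57 in Grow, 1.07 in Grow-shA1, 2.13 in OIS and 1.73 in OIS-shA1 over 156 pairs. CBLN2 encodes a synapse organiser and NETO1 a partner of glutamate receptors. The GC-rich SMAD2 domain and the next B domain, chr18:47406950-48399004 at 43.8%, went from 1.12 in Grow to 1.87 in OIS, with 1.20 in Grow-shA1 and 1.57 in OIS-shA1. An A domain lies between them, and the second B domain holds MBD1 and CXXC1, which encode CpG-binding proteins. Of the 66 B-B domain pairs of the long arm, 33 were higher and 33 lower in OIS than in Grow, and the range ran from -1.21 to 0.754. Of the 53 A-A domain pairs of that arm 42 were higher, with a median of 0.244, and 47 were higher with shA1. On the short arm all 9 domain pairs lay between -0.604 and 0.150.

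An A domain without genes stood out by its contacts. The domain chr18:38001786-39002904 has 5 bins, no protein-coding gene and a GC content of 35.6%, yet its mean score was positive in every map (0.0322 in Grow and 0.00805 in OIS-shA1 at the extremes). Its mean contact with the A domain chr18:32200543-33399858 was 0.377 in Grow, 0.118 in Grow-shA1, 1.22 in OIS and 1.02 in OIS-shA1, the largest rise of any pair of domains. With the A domain chr18:64799546-66600036 it was 0.716, 0.207, 1.55 and 1.00. Both OIS maps were above both growing maps in each case. With the B domain chr18:57600219-59199820 of MC4R and CDH20 it was 0.352 in Grow, 0.495 in Grow-shA1, 1.18 in OIS and 1.12 in OIS-shA1, so the rise also crossed the compartments.

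**Figure D4:**
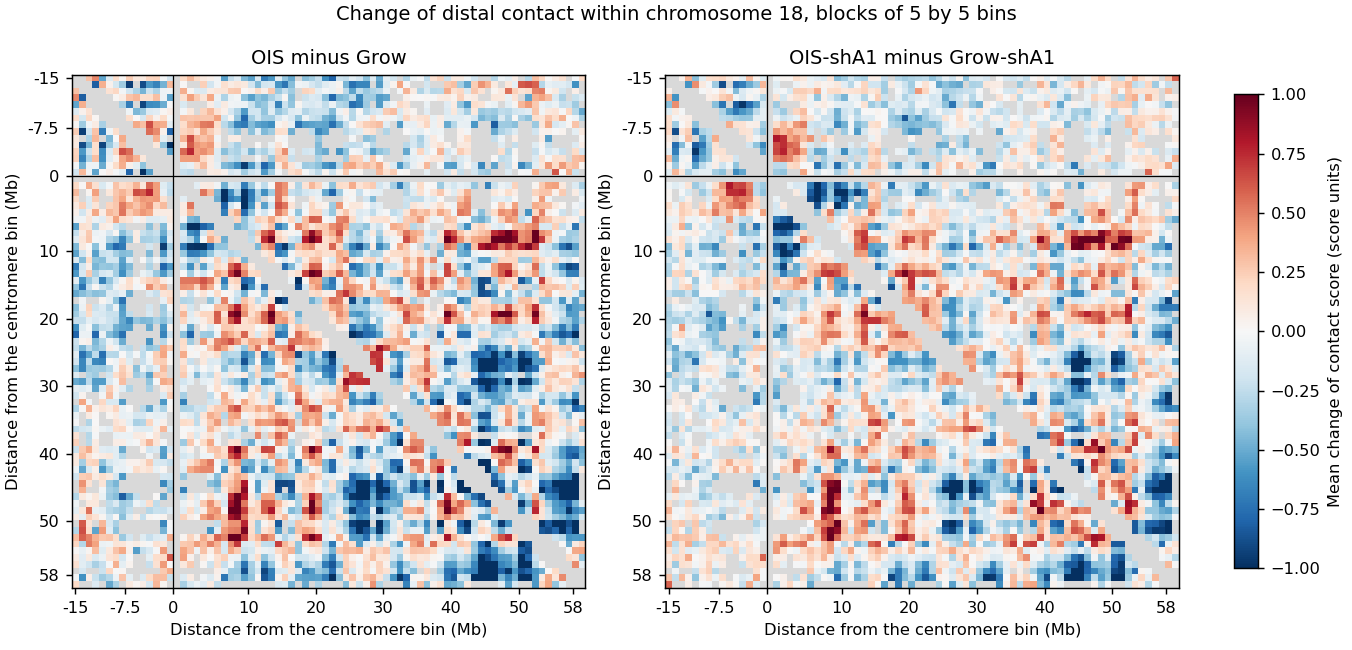
Mean change of distal contact score (score units, red higher and blue lower, colours full at 1) within chromosome 18 in blocks of 5 by 5 bins, for OIS minus Grow and for OIS-shA1 minus Grow-shA1. Both axes give the distance from the centromere bin in Mb, black lines mark the centromere and grey blocks have no value. Red and blue bands of the long arm lie at the same places in both panels, with a slope of 0.750 between them over 1587 blocks of that arm.

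How much of the RAS change was also found with shA1 was measured over blocks of 5 by 5 bins, in comparisons with no map in common. When the RAS change with shA1 was fitted by least squares on the RAS change without it, the slope was 0.711 on the short arm (r = 0.834, 80 blocks), 0.750 on the long arm (r = 0.845, 1587 blocks) and 0.590 between the arms (r = 0.685, 727 blocks). A slope below 1 stands for a smaller change with shA1 in this fit. Over the whole chromosome it was 0.725, place 15 of 23 chromosomes. Blocks of one chromosome share bins, and error in the x values lowers such a slope by an amount that was not measured.

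The distal contacts that a bin makes with B bins were averaged, and their change was set against the bin's GC content. In OIS relative to Grow, the median over 60 short arm bins was -0.151 and over 289 long arm bins -0.0749, beside -0.0767 over all 10372 bins of the genome with a value. The long arm median became 0.0186 with each map centred over all chromosomes as above and -0.192 with scores divided by the SD of the map, and the short arm median -0.0598 with unlisted pairs counted as 0. Among short arm bins 28 (46.7%) were lower by more than 0.2 and 1 (1.67%) higher by that much. Among long arm bins 91 (31.5%) were lower and 14 (4.84%) higher. Over the genome 26.7% were lower and 6.16% higher. The short arm thus had a larger share of lower bins than the long arm and the genome. Partners were B bins of both arms, 32 on the short and 174 on the long arm. Short arm values are therefore mostly contact between the arms. Of short arm A bins 28 of 45 had a value, and of long arm A bins 115 of 124. With shA1 the RAS comparison gave 94 lower and 23 higher bins on the chromosome (26.9% and 6.59%), beside 25.0% and 6.82% over the genome.

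The change with RAS was lower in GC-rich bins on both arms. Its correlation with GC content was r = -0.655 over the 60 short arm bins and -0.453 over the 289 long arm bins, and with shA1 -0.637 and -0.496. For Grow-shA1 minus Grow the correlation had the opposite sign, 0.479 on the short and 0.509 on the long arm, and for OIS-shA1 minus OIS it was 0.531 and 0.332. The bins share their partners and the base content of their neighbours, so these are descriptions. The maps without shA1 are also of another data set, and a difference between data sets that varies with GC content cannot be told apart from shA1.

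**Figure D5:**
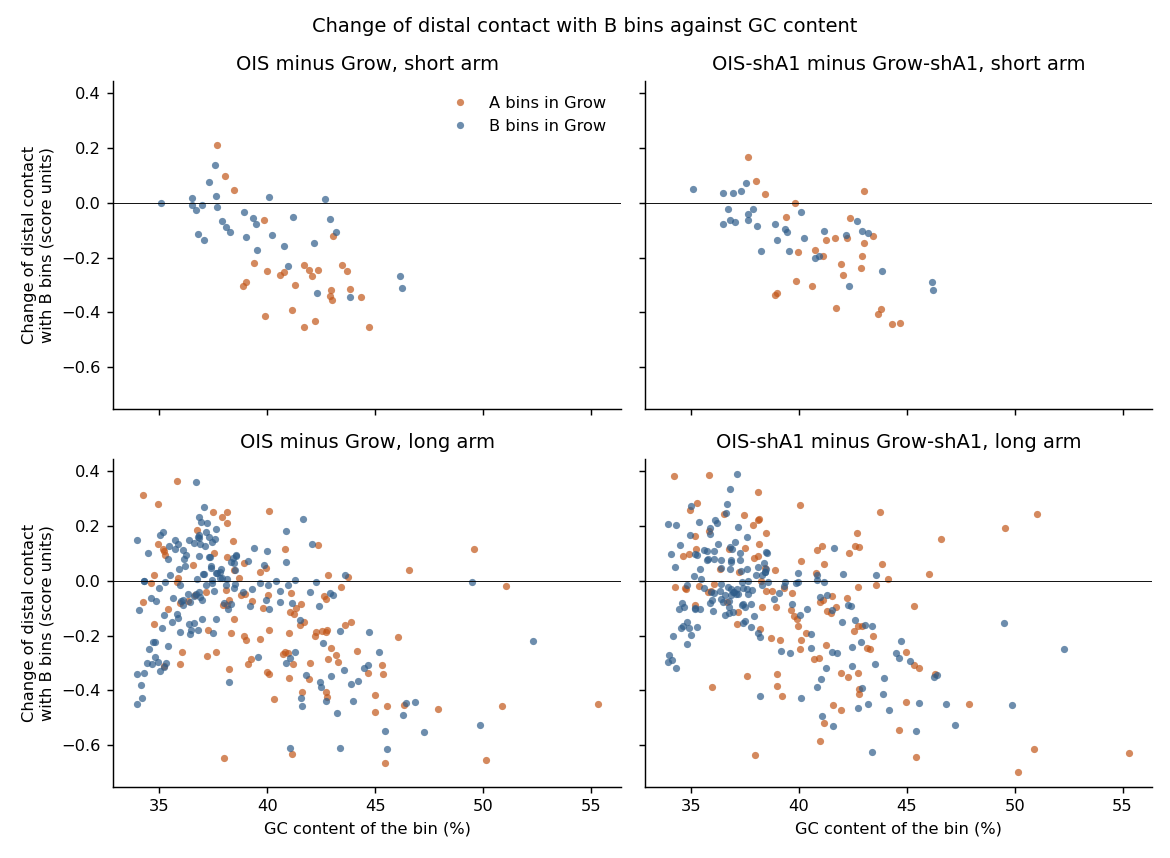
Change of distal contact with B bins (score units) of each bin against its GC content (%), for the short arm (upper panels) and the long arm (lower panels), OIS minus Grow on the left and OIS-shA1 minus Grow-shA1 on the right. Orange points are A bins and blue points B bins of Grow. Points fall toward the GC-rich side in all 4 panels, with r from -0.453 to -0.655.

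The bins at the extremes show the levels behind this. On the short arm the bin chr18:8204576-8399764, inside PTPRM and at 41.7% GC, had a mean distal contact with B bins of -0.493 in Grow, -0.514 in Grow-shA1, -0.948 in OIS and -0.898 in OIS-shA1. Both OIS maps were lower than both growing maps, and its neighbour chr18:8399765-8600185 behaved alike (-0.221, -0.182, -0.675 and -0.623). The bin with the largest rise on that arm, chr18:2205452-2400543, has no protein-coding gene and 37.7% GC, and its levels were -0.00204 in Grow, -0.451 in Grow-shA1, 0.208 in OIS and -0.283 in OIS-shA1. Here the shA1 difference was -0.449 in Grow and -0.491 in OIS, larger in size than the RAS difference of 0.210. The bin before it, chr18:2002788-2205451, had 0.476 in Grow, 0.127 in Grow-shA1, 0.616 in OIS and 0.202 in OIS-shA1.

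On the long arm the largest fall was in the last kept bins before the telomere. The bin chr18:77799596-77997745, where ADNP2, a homeobox protein gene, starts, had -0.139 in Grow, 0.0157 in Grow-shA1, -0.803 in OIS and -0.627 in OIS-shA1. The bin chr18:77602929-77799595, with 5 gene starts including TXNL4A (a spliceosome protein) and 50.1% GC, had -0.294, 0.0305, -0.947 and -0.667. Both were lower in OIS with and without shA1. The largest rises were in the neighbouring bins chr18:70802630-70999275 (0.288 in Grow, -0.0317 in Grow-shA1, 0.652 in OIS and 0.357 in OIS-shA1) and chr18:70598327-70802629 (0.888, 0.689, 1.25 and 0.970). Neither holds a protein-coding gene, and their GC contents are 35.8% and 36.7%.

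Bins of 42 genes listed by role were then described, of which 36 bins are distinct and 34 had a value for at least 50% of their pairs with B. Each bin is about 200 kb, so its value cannot be assigned to 1 gene. The 4 genes of TGF-beta signalling had a median of -0.154 in OIS relative to Grow, and 2 of 4 bins were lower by more than 0.2. Of these 4 bins 3 were A, and 46.9% of A bins of the chromosome, 34.1% of all its bins and 26.7% of bins of the genome were lower by as much. The bin of SMAD2 had 0.209 in Grow, 0.286 in Grow-shA1, -0.230 in OIS and -0.0696 in OIS-shA1. The bin of TGIF1, a repressor of SMAD-driven transcription on the short arm, had -0.531, -0.655, -0.885 and -0.801. SMAD4, the common partner of receptor-activated SMADs, differed in another way, with 0.259 in Grow, 0.114 in Grow-shA1, 0.305 in OIS and -0.0246 in OIS-shA1, so only OIS-shA1 was below 0. SMAD7, the inhibitory SMAD, kept a low level in all 4 maps, from -1.54 to -1.34.

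Among genes of arrest, cell death and inflammation, 4 of the 5 bins with a value were lower by more than 0.2, with a median of -0.405 (with shA1 4 of 5 and -0.387). All 5 bins were A, where the share over the chromosome was 46.9% (32.9% with shA1), beside 26.7% over the genome (25.0% with shA1). The bin of SERPINB2, the inhibitor of urokinase, had 0.274 in Grow, 0.293 in Grow-shA1, -0.372 in OIS and -0.344 in OIS-shA1, and its difference of -0.646 was lower than that of all but 0.656% of the bins of the genome with a value. The bin of BCL2, the anti-apoptotic protein, had -0.0177, 0.114, -0.423 and -0.221. NFATC1, a transcription factor of T cells and osteoclasts, had 0.194, 0.309, -0.275 and -0.140. In these 3 bins both OIS maps lay below both growing maps. PMAIP1, which encodes the pro-apoptotic protein NOXA, had -0.869, -0.907, -0.847 and -0.783 and moved little.

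Of the genes of replication, repair and mitosis, 3 of 4 bins were lower by more than 0.2, with a median of -0.222. Of the 4 bins 3 were A, beside 46.9% of A bins of the chromosome and 26.7% of bins of the genome that were lower by as much. TYMS, the thymidylate synthase gene, had -0.0772 in Grow, -0.345 in Grow-shA1, -0.510 in OIS and -0.474 in OIS-shA1. RBBP8, which encodes the end resection factor CtIP, had -0.952, -0.941, -1.17 and -1.32. SKA1, a kinetochore protein gene, shares its bin with MBD1 and CXXC1 and had 0.566, 0.542, 0.338 and 0.399, while NDC80, of the same structure, had -0.331, -0.561, -0.285 and -0.529. The sign for RBBP8 turned, to 0.0239 and 0.0152, when maps were scaled by their SD or unlisted pairs counted as 0.

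Matrix and adhesion genes of fibroblasts had a median of -0.214 over 4 bins. All 4 were A, and the median over A bins of the chromosome was -0.186. Of the 4 bins 2 were lower by more than 0.2, beside 46.9% of A bins of the chromosome and 26.7% of bins of the genome. The bin of LAMA1, a laminin chain, had -0.166 in Grow, -0.136 in Grow-shA1, -0.414 in OIS and -0.542 in OIS-shA1. CDH2, the N-cadherin of fibroblasts, was the exception, with -0.295, -0.422, -0.0433 and -0.182, a rise of 0.252 in a bin of 37.5% GC. The 7 desmosomal cadherin genes, which serve epithelial junctions, lie in 3 neighbouring B bins. These stayed between 1.03 and 1.28 in all maps and differed by -0.0691 to -0.00894 between OIS and Grow.

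The neuronal and type II cadherin genes of gene-poor stretches lie in 6 B bins with high levels and a median difference of 0.0257. NETO1 had 0.940 in Grow, 0.746 in Grow-shA1, 1.15 in OIS and 0.943 in OIS-shA1. CDH7 went the other way, with 1.45, 1.38, 1.12 and 1.19, and so did CDH19 (1.33, 1.33, 0.996 and 1.01), although both bins are among the most AT-rich, at 35.0% and 34.3% GC. DCC, the netrin receptor gene, had 1.20, 1.15, 1.19 and 0.958. The direction within this group was therefore split.

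Among chromatin proteins and among signalling enzymes, 1 bin each was lower by more than 0.2, that of MBD1 and CXXC1 (difference -0.228) and that of PTPRM (difference -0.267). Over 5 bins of chromatin protein genes the median was -0.0390, and SMCHD1, which is needed for silencing of the inactive X chromosome, had -0.677 in Grow, -0.751 in Grow-shA1, -0.580 in OIS and -0.671 in OIS-shA1. Over the 4 bins of kinases and phosphatases the median was -0.133. ROCK1, a kinase of the actin cytoskeleton next to the centromere on the long arm, had -0.263, -0.392, -0.310 and -0.733, a difference of -0.423 between OIS-shA1 and OIS, the largest in size among the gene bins in that comparison. In all, 14 of the 34 bins were lower by more than 0.2 and 2 higher, with a median of -0.119. Over the genome 26.7% of bins were lower and 6.16% higher, with a median of -0.0767. Over chromosome 18 the shares were 34.1% and 4.30%. Of the 34 bins, 19 were A and 15 were B. On the chromosome 46.9% of A bins and 25.2% of B bins were lower by as much. The bins of MALT1 and LAMA3 had too few listed pairs to be counted.

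Networks were built from the 1% of distal pairs of the chromosome with the largest increase, 570 pairs in each comparison. In OIS relative to Grow, the largest k for which every bin of a subgraph has at least k partners was 6, and the subgraph held 18 bins, all on the long arm, 10 B and 8 A, with a mean GC content of 35.3% against 39.8% for all kept bins. These bins were chosen on this difference, so their levels are a description, with 0.588 in Grow, 0.275 in Grow-shA1, 1.94 in OIS and 1.27 in OIS-shA1 over 123 pairs. They lie in 9 runs between chr18:25798356 and chr18:70999275. The starts of only 2 protein-coding genes fall in them, MC4R, a melanocortin receptor of the hypothalamus, and DOK6, an adaptor of receptor tyrosine kinases.

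With shA1 the RAS comparison gave a k of 4 with 20 bins, again all on the long arm and at 34.8% GC. The 2 sets shared 10 bins, 55.6% of the 18 bins without and 10 of the 20 bins with shA1. The long arm has 298 kept bins and the chromosome 375. Over the pairs of the first set, the maps that had no part in choosing it differed by 0.991 (OIS-shA1 minus Grow-shA1). Over all distal pairs of the chromosome the mean was 0.0643 in OIS-shA1 and 0.108 in Grow-shA1. The largest k was 3 for OIS-shA1 minus OIS (110 bins on both arms) and also for Grow-shA1 minus Grow (90 bins). Chromosome 18 held place 11 of 23 for the k of the RAS comparison. The networks took 1% of the distal pairs of each chromosome, so they differed in size. They held from 98 pairs on chromosome 22 to 3518 on chromosome 2, and the place was not matched for this. The long arm held 66.3% of the distal pairs listed in all maps and 76.5% of the pairs in the network.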

How the data were processed

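The values are scores for pairs of bins of one chromosome, deposited by the authors after HiC-Pro alignment to hg19 (per the submitters' processing notes), removal of artefacts and duplicates, counting in bins of about 200 kb, balancing (ICE) and distance correction. The deposited bin list gives other values, bin coordinates whose ends equal the GRCh37 lengths of 24 of 24 chromosomes. Each shA1 map pools 2 replicates.

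From these, compartments were the sign of the first principal component per chromosome (unlisted pairs at 0, oriented by GENCODE protein-coding genes lifted to GRCh37, the Grow map's classes used for all maps). Class means, block slopes, k-cores and mean distal contact with B bins were computed with Python 3.11.15, numpy 2.4.6, pandas 2.3.3 and networkx 3.6.1, and figures with matplotlib 3.10.9. A bin's contact with B bins was used when at least 50% of its distal B pairs and at least 10 were listed in all 4 maps. The computations were tested on simulated data with planted compartments and changes. Named bins were those of 42 genes listed by role, the 2 largest rises and 2 largest falls per arm, runs of at least 3 bins that changed compartment alike and the bins of the network core. Domains, single bins and their genes named beside these were chosen after their values were seen. The members and lists were chosen with earlier results of these data known. Alternatives changed the scale, centring, unlisted pairs, distance limit, compartments, block size, share of network pairs and GC split. No replicate could be left out, because each condition has 1 map. HiC-Pro's version and read depth per pair are not used here. The sequence window of 1 long arm bin is not reported here.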

Additional observations from a re-analysis of the deposited data

Results flagged for a closer look

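On the short arm of chromosome 18 the RAS difference had opposite signs without and with shA1 for 2 classes of pairs. Local A-A contact differed by 0.246 in OIS minus Grow and by -0.0107 in OIS-shA1 minus Grow-shA1. Distal B-B contact of the same arm differed by 0.0415 and by -0.00599. The opposite signs of the B-B differences depended on the processing, since both had the same sign with SD scaling (-0.260 and -0.190), common centring (0.167 and 0.0931), compartments from each map (0.297 and 0.0953) and a component per arm (-0.0176 and -0.143). Each condition has 1 map, so the difference between the comparisons was not tested, and the shA1 maps come from another data set than the maps without it.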

How the results depend on the processing

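No paired analysis was possible because each shA1 map pools its replicates and the other maps have no replicate numbers. With no replicates, a value counted as kept when it stayed within 1.5-fold of the main value with the same sign. Of 237 alternative values of 45 main results, 163 did so, 55 moved further and 19 changed sign. The GC split and the class means other than B-B were given alternatives after the data had been seen. Slopes, total numbers of sign changes and the k of the networks stayed within 1.5-fold in the alternatives run. Of 32 values of sign changes in each direction, 29 stayed and 3 moved, all with a component per arm. Of 200 alternative values of 40 class means other than those main results, 112 stayed within 1.5-fold and 88 moved, 22 of them with a change of sign. Distal and local A-A rises of OIS over Grow within the arms kept their direction in all alternatives run for them, as did the fall of mixed pairs. The cause of the moves below was not tested. The maps list fewer distal pairs in OIS and shA1, and the reads per pair are unknown, which limits long-range A-B values most.

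SD scaling gives values in SD units. Under it compartment strength of the short arm became 0.0573 in OIS minus Grow, 0.0517 in OIS-shA1 minus OIS, 0.0328 in Grow-shA1 minus Grow and 0.0763 in OIS-shA1 minus Grow-shA1. Long arm strength became -0.0369, 0.0523, -0.0157 and 0.0311 in that order. Short arm B-B contact became -0.260 in OIS minus Grow and -0.190 in OIS-shA1 minus Grow-shA1. Long arm B-B contact became -0.308, 0.0187, -0.0935 and -0.196, in the order above. B-B contact between the arms became -0.257 in OIS minus Grow, -0.139 in Grow-shA1 minus Grow and -0.190 in OIS-shA1 minus Grow-shA1. The median contact change with B bins became -0.238 on the short and -0.192 on the long arm, and RBBP8 turned to 0.0239. B-B pairs both below the GC split became -0.127 in OIS minus Grow, -0.0883 in OIS-shA1 minus OIS and 0.0393 in OIS-shA1 minus Grow-shA1. Pairs both above became 0.0378 in OIS minus Grow, -0.105 in Grow-shA1 minus Grow and -0.0220 in OIS-shA1 minus Grow-shA1.

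With common centring, short arm B-B contact became 0.167 in OIS minus Grow and 0.0931 in OIS-shA1 minus Grow-shA1. Long arm B-B contact became 0.0121, -0.0182, -0.00238 and -0.00376, in the order above. Between the arms it became -0.0535 in OIS minus Grow, -0.0455 in OIS-shA1 minus OIS and -0.0206 in Grow-shA1 minus Grow. The long arm median contact change with B bins became 0.0186. Pairs both below the GC split became 0.237 in OIS minus Grow, mixed pairs 0.103 in Grow-shA1 minus Grow, and pairs both above -0.0115 in Grow-shA1 minus Grow and 0.105 in OIS-shA1 minus Grow-shA1.

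With compartments from each map, which compares different bins, short arm B-B contact became 0.297, -0.426, -0.224 and 0.0953 in the order above, and long arm B-B contact 0.199 in OIS minus Grow, -0.203 in OIS-shA1 minus OIS and 0.0484 in OIS-shA1 minus Grow-shA1. Between the arms it became 0.111, -0.255 and -0.0521 in those 3 comparisons. Strength in OIS-shA1 minus OIS became -0.0878 on the short and -0.0546 on the long arm, long arm strength in Grow-shA1 minus Grow 0.0350, and the long arm median contact change with B bins -0.0308. With a component per arm, short arm B-B contact became -0.0176 in OIS minus Grow and -0.143 in OIS-shA1 minus Grow-shA1, and short arm strength -0.0775 in OIS-shA1 minus OIS and 0.211 in OIS-shA1 minus Grow-shA1.

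With distal over 5 Mb, short arm B-B contact became 0.0129 in OIS minus Grow and -0.0870 in OIS-shA1 minus Grow-shA1, long arm B-B contact -0.0645 in OIS-shA1 minus OIS, and long arm strength 0.00794 in Grow-shA1 minus Grow. With unlisted pairs as 0, short arm strength became 0.0261 in OIS-shA1 minus OIS, and long arm strength 0.106, -0.0467, -0.0240 and 0.0835 in the order above. The median contact change with B bins became -0.0598 on the short and -0.0390 on the long arm, and RBBP8 turned to 0.0152. With the split at the median GC of B bins, pairs both below became 0.263 in OIS minus Grow and 0.292 in OIS-shA1 minus Grow-shA1, mixed pairs 0.0424 in OIS-shA1 minus OIS and 0.00209 in Grow-shA1 minus Grow, and pairs both above 0.0272 in OIS minus Grow and -0.0734 in OIS-shA1 minus Grow-shA1. Of 247 alternative values of named bins, 82 moved and 2, both of RBBP8, turned from a called change.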

Other observations

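The ends of chromosome 18 had a mean contact score above 0 in every map. Of the pairs between the 10 bins in the outer 2 Mb of each arm, 72 were used. Their mean score was 0.647 in Grow (SD 0.679 between pairs), 0.585 in Grow-shA1, 0.444 in OIS (SD 0.956) and 0.649 in OIS-shA1. The bins on both sides of the centromere had far lower contact. Over 90 pairs of the inner 2 Mb of each arm it was -1.28 in Grow (SD 0.971), -1.22 in Grow-shA1, -1.40 in OIS and -1.52 in OIS-shA1. All 10 inner bins of the short arm were B in Grow, and 10 of the 11 inner bins of the long arm were A. The outer bins held both classes on each arm.

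A bins without a gene start and with a GC content below the mean of B bins (38.7%) numbered 33, of which 32 lie on the long arm. This class was defined after the network bins had been seen, and holds all 8 A bins of the network core of OIS minus Grow. Their mean compartment score was 0.0487 in Grow, 0.0511 in Grow-shA1, 0.0403 in OIS and 0.0444 in OIS-shA1. Their distal contact with B bins differed by a median of 0.0204 between OIS and Grow, with 19 of 33 above 0, while the other 110 A bins with a value had a median of -0.245 and 14 above 0. With shA1 the medians were 0.0927 and -0.154. The core bins were chosen on OIS minus Grow, so the contrast in that comparison was partly set by how the class was drawn. The class is also GC-poor, with a mean of 36.4% against 42.1% for the other A bins. Over A bins the change in OIS minus Grow correlated with GC content at r = -0.497.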
